A study of Arabidopsis thaliana with 6 samples.

Results

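The genes examined were 8 of Arabidopsis thaliana that act where broken DNA is joined: KU70, KU80, LIG4 and XRCC4 of canonical non-homologous end joining, POLQ of alternative end joining, the DNA ligase genes LIG1 and LIG6, and XRCC1. They were chosen by function and by gene identifier, and all 8 were found among the 33489 genes of the deposited count tables. Polyadenylated RNA had been sequenced from whole seedlings, 14 days old and grown on plates, in 3 samples of the mutant line zdp-1 ape2-2 and 3 of the wild type Col-0. The line carries mutant alleles of ZDP and APE2 and is labelled a knockout of both genes, and the labels name no treatment of either group. The comparison asks how far the genes that rejoin DNA differ in transcript level between seedlings mutant for these end-cleaning enzymes and the wild type.

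A break through both DNA strands can be closed by the Ku70/Ku80 ring, which slides onto the ends and draws in the ligase LIG4 with its partner XRCC4, or by polymerase theta, encoded by POLQ, which anneals short stretches of matching sequence. A nick in 1 strand, such as those left by base excision repair and by active DNA demethylation, is sealed mainly by LIG1, the ligase that also joins Okazaki fragments during replication, while XRCC1 holds the repair enzymes of such nicks together. Before a ligase can act, the ends must be cleaned, which is the work of ZDP, a phosphatase of 3′ ends, and of APE2, which belongs to the AP endonucleases.

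Library totals ran from 37154781 to 37241739 counts in zdp-1 ape2-2 and from 31190605 to 37222185 counts in Col-0. Both targeted genes were lower but still counted. ZDP had 17.9 ± 1.43 CPM in zdp-1 ape2-2 and 29.4 ± 1.37 CPM in Col-0 (SD, n = 3 each), where CPM is the normalised read count, scaled to library size with TMM factors and used throughout. APE2 had 5.75 ± 0.12 CPM in zdp-1 ape2-2 and 8.18 ± 0.87 CPM in Col-0, with 33.6% of its exon bases under another gene. Gene counts do not show which part of a transcript remained. The first principal component, with 75.0% of the variance, separated the genotypes.

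XRCC4 rose and LIG6 fell in zdp-1 ape2-2, and these were the changes that held under every alternative tried. XRCC4 was 1.38-fold higher (95% interval 1.25 to 1.51) and LIG6 fell by 22.6%. KU70 fell by 8.18%, POLQ fell by 9.16% and XRCC1 fell by 8.69%, while KU80, LIG4 and LIG1 did not pass. In all, 1 of the 8 genes was higher and 4 were lower at an adjusted p below 0.05 in edgeR's quasi-likelihood test with Benjamini-Hochberg adjustment over all 21182 genes tested, where 22.2% of all genes were higher and 21.2% lower. All 8 passed the filter on low counts. Without Col-0 replicate A 3 of the 8 were called, 2 of them lower, against 8214 of all 21371 genes tested, 3994 of them lower. Without zdp-1 ape2-2 replicate B 2 were higher and 2 lower, against 4272 higher and 4009 lower of all 21301 genes tested. A share of 5 in 8 stands against 43.4% of all genes called in either direction. DESeq2 called 2 of the 8, XRCC4 and LIG6, against 32.1% of all genes to which it gave an adjusted p. The median log2 fold change of the 8 genes was -0.12, against 0.00 for all genes tested, and their median absolute value was 0.13, equal to that of all genes at 0.13. The groups did not overlap for 5 of the 8 genes, against 50.3% of all genes. Of these 1 was higher, against 25.5% of all genes, and 4 were lower, against 24.8%. Calls over all genes were 51.1% higher, or 71.9% with library totals as the only scaling. In whole seedlings, fewer cells of a type that expresses a gene and less of its RNA per cell cannot be told apart.

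**Figure D1:**
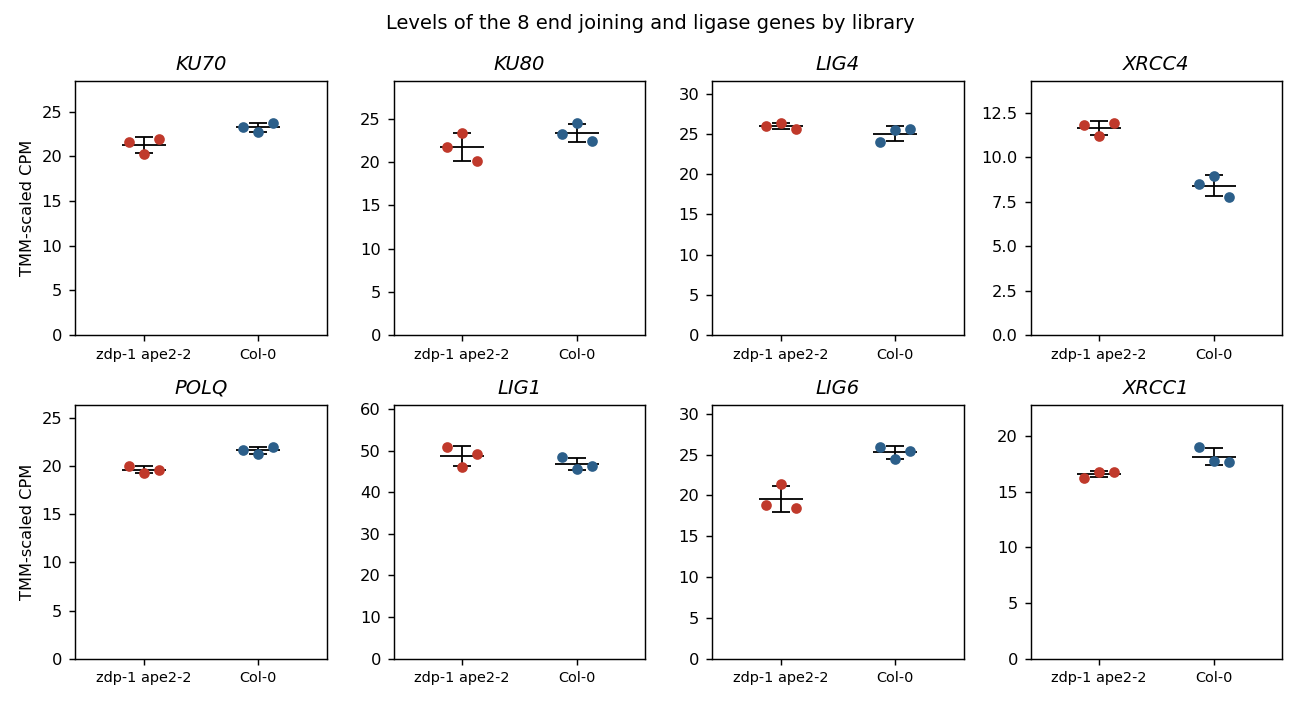
TMM-scaled CPM of the 8 genes in each library, zdp-1 ape2-2 in red and Col-0 in blue, with points for libraries A, B and C from left to right, a line at the mean and bars for the SD (n = 3 each). XRCC4 stands at 11.2 to 11.9 CPM in zdp-1 ape2-2 and at 7.74 to 8.94 CPM in Col-0, and LIG6 at 18.4 to 21.4 CPM in zdp-1 ape2-2 and 24.4 to 25.9 CPM in Col-0, while the other 6 genes differ by less than 10%.

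The Ku genes differed little. KU70 (AT1G16970, chromosome 1, 5800767 to 5805811) had 21.7, 20.3 and 22.0 CPM in zdp-1 ape2-2 replicates A, B and C, against 23.3, 22.8 and 23.7 CPM in Col-0. The libraries did not overlap, and KU70 fell by 0.12 ± 0.05 (SE) on the log2 scale, with an edgeR adjusted p of 0.0290. This call was lost without Col-0 replicate A (-0.12, edgeR adjusted p = 0.0635), without Col-0 replicate C (-0.11, edgeR adjusted p = 0.0818) and without zdp-1 ape2-2 replicate B (-0.09, edgeR adjusted p = 0.167). Over all alternatives the adjusted p of KU70 ran from 0.0201 to 0.689.

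KU80 (AT1G48050, chromosome 1, 17723382 to 17727243), which encodes the other subunit of the ring, had 21.8, 23.3 and 20.2 CPM in zdp-1 ape2-2, against 23.3, 24.5 and 22.4 CPM in Col-0. The groups overlapped. Its log2 fold change was -0.11 with a 95% interval of -0.21 to -0.01, and the edgeR adjusted p was 0.0812. KU80 passed without Col-0 replicate C (-0.13, edgeR adjusted p = 0.0398) and without zdp-1 ape2-2 replicate B (-0.16, edgeR adjusted p = 0.0146). Its change was smaller without zdp-1 ape2-2 replicate C (-0.06, edgeR adjusted p = 0.410) and without Col-0 replicate B (-0.07, edgeR adjusted p = 0.317), in a range of 0.0146 to 0.756 over the alternatives. The ratio of KU70 to KU80, per kb of exon, was 1.11, 0.974 and 1.22 in zdp-1 ape2-2 and 1.12, 1.04 and 1.18 in Col-0. The ratio thus lay near 1 in every library, and it differed by -0.02 on the log2 scale (exact two-sided permutation p = 0.9).

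LIG4 and XRCC4, whose proteins form 1 complex, did not move alike. LIG4 (AT5G57160, chromosome 5, 23154965 to 23161826) had 26.0, 26.3 and 25.6 CPM in zdp-1 ape2-2, against 23.9, 25.4 and 25.6 CPM in Col-0. Its log2 fold change was 0.06, with a 95% interval of -0.03 to 0.14 and an edgeR adjusted p of 0.307. LIG4 was closer to 0 without Col-0 replicate A (0.02, edgeR adjusted p = 0.727) and passed with library totals as the only scaling (0.12, edgeR adjusted p = 0.0222), in a range of 0.0222 to 0.894 over the alternatives. XRCC4 (AT3G23100, chromosome 3, 8220682 to 8226400) had 11.8, 11.2 and 11.9 CPM in zdp-1 ape2-2, against 8.50, 8.94 and 7.74 CPM in Col-0. Every mutant library was above every Col-0 library. XRCC4 rose by 0.46 ± 0.07 on the log2 scale (edgeR adjusted p = 3.06e-07). Its exact two-sided permutation p was 0.1, below which no comparison of 3 with 3 samples can go.

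Within each library, XRCC4 stood at 1.45, 1.37 and 1.49 times LIG4 per kb of exon in zdp-1 ape2-2, and at 1.14, 1.13 and 0.970 times in Col-0. The 3 mutant ratios were all above the 3 Col-0 ratios, by 0.41 on the log2 scale (exact two-sided permutation p = 0.1, and 0.175 after Benjamini-Hochberg adjustment over the 7 ratios and shares compared). Scaling of the libraries cancels in such a ratio.

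The count of XRCC4 needs care, because most of its exon sequence exists elsewhere in the genome. Of its 1246 exon bases, 66.5% have a copy of at least 90% identity. The gene AT1G61410 on chromosome 1 carries 546 of them, from 4 neighbouring exons joined without introns, and a further 282 bases have a copy near the transcribed pseudogene AT3G23109, which begins 390 bases past the annotated end of XRCC4. The third exon of XRCC4, all of it coding, is shown beside its copy in AT1G61410 because it is the closest match, with 98.45% identity over 129 bases. Both are on TAIR10 and credited to RefSeq TAIR10.1, XRCC4 at chr3:8221240-8221368 on the plus strand and the copy at chr1:22659041-22659169 on the minus strand. Capitals mark the 2 bases that differ, G88A and C93T, with XRCC4 first and positions counted from 1 at the 5′ end of the exon.
XRCC4 exon 3: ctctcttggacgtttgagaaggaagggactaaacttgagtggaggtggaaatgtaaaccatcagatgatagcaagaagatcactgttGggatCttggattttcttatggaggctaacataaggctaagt
AT1G61410 copy: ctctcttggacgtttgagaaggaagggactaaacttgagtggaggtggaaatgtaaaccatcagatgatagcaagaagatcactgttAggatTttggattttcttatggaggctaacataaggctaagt

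The copies themselves held few reads. AT1G61410 had 23, 27 and 18 counts in zdp-1 ape2-2 and 14, 22 and 14 counts in Col-0, and AT3G23109 had 2, 2 and 1 counts in zdp-1 ape2-2 and 1, 0 and 3 counts in Col-0. XRCC4 had 449, 425 and 450 counts in zdp-1 ape2-2 and 307, 326 and 236 counts in Col-0. With the counts of both copies added to it, XRCC4 had a log2 fold change of 0.45 ± 0.06 (edgeR adjusted p = 2.46e-07). For XRCC4 over all alternatives, this sum and its own counts under the other settings, the adjusted p ran from 1.56e-10 to 0.00656. Reads that align to several places may have been left out or shared, which the sources used here do not state.

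The annotation of XRCC4 also holds a last exon of 255 bases that lies 3997 bases after the one before it, in which the annotated coding sequence ends. The gene RLP37 (AT3G23110), which encodes a receptor-like protein, lies in that gap on the opposite strand and overlaps no XRCC4 exon. RLP37 had 6.58, 5.86 and 6.08 CPM in zdp-1 ape2-2 and 4.02, 3.78 and 4.07 CPM in Col-0, and rose by 0.64 ± 0.09 on the log2 scale (edgeR adjusted p = 1.97e-07). Its groups did not overlap. How many XRCC4 counts fall in the last exon cannot be read from gene counts, so its part in the rise was not tested. AT1G61410, AT3G23109 and RLP37 were picked after the annotation of XRCC4 had been examined.

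**Figure D2:**
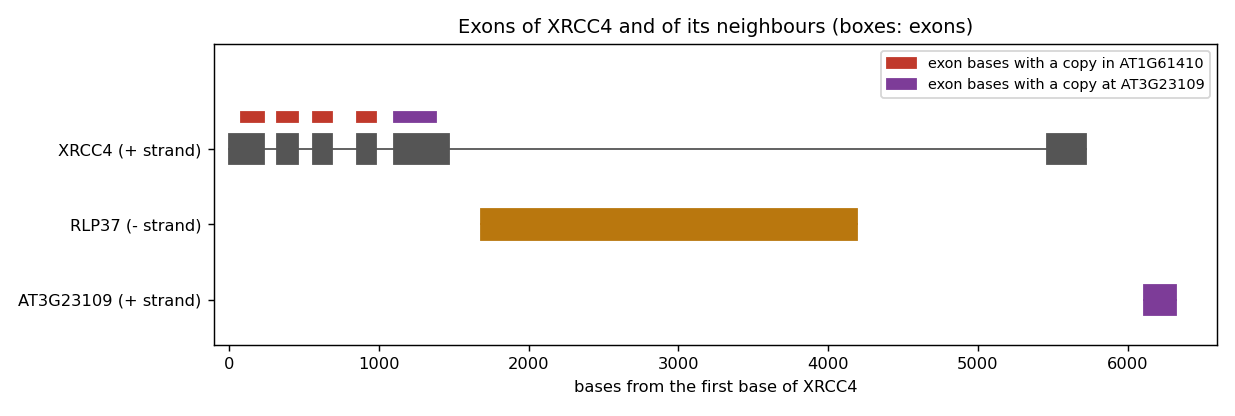
Exons (boxes) of XRCC4, RLP37 and AT3G23109 along the bases counted from the first base of XRCC4, with coloured bars above the XRCC4 exons that have a copy of at least 90% identity in AT1G61410 (red) or near AT3G23109 (purple). The first 5 exons are covered in large part by copies, and the last exon stands 3997 bases apart with RLP37 in between.

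POLQ (AT4G32700, chromosome 4, 15767185 to 15779697), also known as TEBICHI, had 20.0, 19.3 and 19.6 CPM in zdp-1 ape2-2, against 21.7, 21.2 and 22.0 CPM in Col-0. The groups were narrow and did not overlap. POLQ fell by 0.14 ± 0.05 on the log2 scale (edgeR adjusted p = 0.0139). The call was lost without zdp-1 ape2-2 replicate B (-0.13, edgeR adjusted p = 0.0524), and the adjusted p ran from 0.0126 to 0.638 over the alternatives. Relative to LIG4, per kb of exon, POLQ stood at 0.425, 0.406 and 0.425 in zdp-1 ape2-2 and at 0.502, 0.463 and 0.474 in Col-0, again without overlap (difference of -0.20 on the log2 scale, exact two-sided permutation p = 0.1, adjusted 0.175). No exon of POLQ lies under another gene or has a copy of at least 90% identity.

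Among the ligase genes LIG6 had the clearest change. LIG6 (AT1G66730, chromosome 1, 24884681 to 24892046), a plant-specific ligase known for its role in seed longevity, had 18.8, 21.4 and 18.4 CPM in zdp-1 ape2-2, against 25.9, 24.4 and 25.4 CPM in Col-0. All mutant libraries were below all Col-0 libraries, and replicate B was the highest of the mutant. LIG6 fell by 0.37 ± 0.05 on the log2 scale (edgeR adjusted p = 8.65e-08), an amount of -0.31 to -0.44 over the alternatives. It has no overlapping gene and no close copy.

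LIG1 (AT1G08130, chromosome 1, 2542663 to 2547946) had 50.8, 46.1 and 49.2 CPM in zdp-1 ape2-2, against 48.4, 45.7 and 46.4 CPM in Col-0. The groups overlapped, the log2 fold change was 0.06 with a 95% interval of -0.02 to 0.13, and the edgeR adjusted p was 0.204. LIG1 passed without zdp-1 ape2-2 replicate B (0.10, edgeR adjusted p = 0.0460) and was closer to 0 without zdp-1 ape2-2 replicate A (0.03, edgeR adjusted p = 0.652), in a range of 0.00570 to 0.887 over the alternatives. Copies in AT1G49250, a gene that the reference names an ATP-dependent DNA ligase, cover 11.0% of the exons of LIG1. AT1G49250 had 0, 7 and 6 counts in zdp-1 ape2-2 and 0 counts in every Col-0 library, too few to be tested.

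Set against each other per kb of exon, the 3 ligases kept 1 order in every library, with LIG1 first, LIG4 next and LIG6 last. LIG6 held 13.7%, 16.3% and 13.9% of their summed level in zdp-1 ape2-2 and 18.9%, 18.4% and 18.8% in Col-0. The shares did not overlap, and the difference was -4.09 percentage points (exact two-sided permutation p = 0.1, adjusted 0.175). LIG1 held 62.5% ± 2.01 in zdp-1 ape2-2 and 59.4% ± 0.92 in Col-0, and LIG4 22.9% ± 0.59 in zdp-1 ape2-2 and 21.8% ± 1.09 in Col-0 (SD, n = 3 each). Both of these shares overlapped between the groups (exact two-sided permutation p = 0.2 each, adjusted 0.233).

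**Figure D3:**
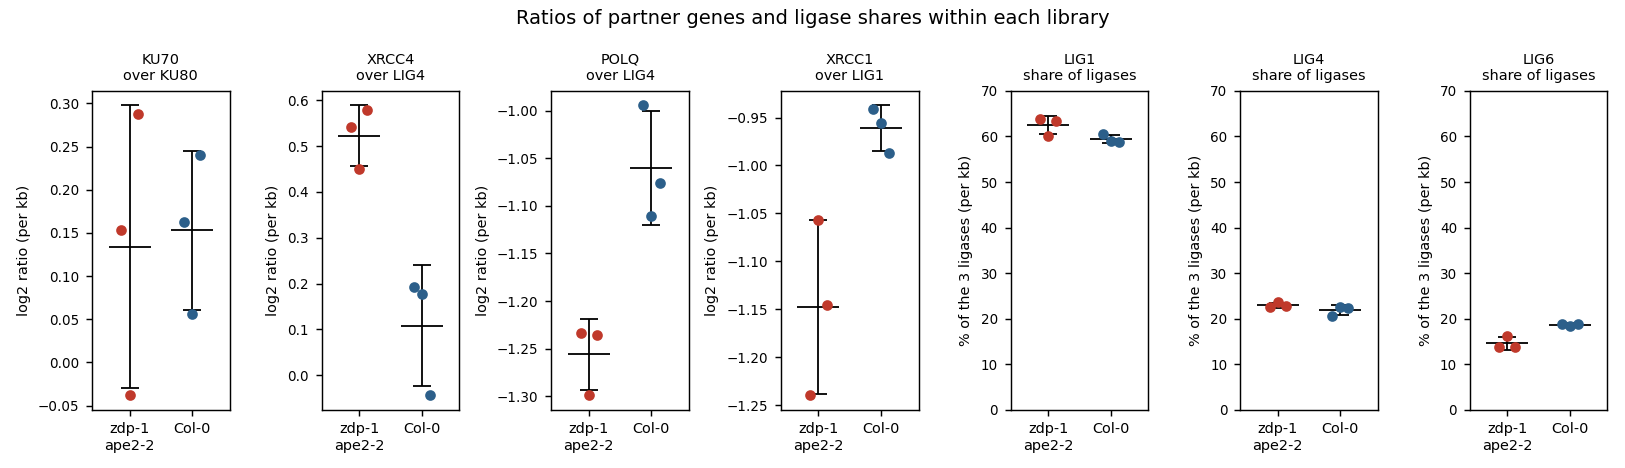
Ratios of partner genes (log2, per kb of exon) and the share of each ligase in the summed level of LIG1, LIG4 and LIG6, by library, with zdp-1 ape2-2 in red and Col-0 in blue, lines for means and bars for the SD (n = 3 each). XRCC4 over LIG4, POLQ over LIG4, XRCC1 over LIG1 and the LIG6 share do not overlap between the groups, and the remaining 3 do.

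XRCC1 (AT1G80420, chromosome 1, 30235164 to 30238535), which in Arabidopsis acts with ZDP in base excision repair and demethylation, had 16.2, 16.7 and 16.8 CPM in zdp-1 ape2-2, against 19.0, 17.8 and 17.6 CPM in Col-0. The groups did not overlap, and XRCC1 fell by 0.13 ± 0.05 on the log2 scale (edgeR adjusted p = 0.0340). The call was lost without Col-0 replicate A (-0.10, edgeR adjusted p = 0.185), without zdp-1 ape2-2 replicate A (-0.12, edgeR adjusted p = 0.109) and without zdp-1 ape2-2 replicate B (-0.14, edgeR adjusted p = 0.0547), and the adjusted p ran from 0.0292 to 0.676 over the alternatives. XRCC1 stood at 0.424, 0.481 and 0.452 times LIG1 per kb of exon in zdp-1 ape2-2 and at 0.521, 0.516 and 0.504 times in Col-0. The difference was -0.19 on the log2 scale, without overlap (exact two-sided permutation p = 0.1, adjusted 0.175).

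Corrected for length, the 8 genes spanned a range from LIG1, at 17.7 ± 0.86 CPM per kb in zdp-1 ape2-2 and 17.0 ± 0.50 in Col-0, to POLQ, at 2.72 ± 0.05 in zdp-1 ape2-2 and 2.99 ± 0.05 in Col-0 (SD, n = 3 each). XRCC4 was number 2 in zdp-1 ape2-2, at 9.32 ± 0.31 CPM per kb, and number 5 in Col-0, at 6.74 ± 0.49. In zdp-1 ape2-2 the libraries of XRCC4, KU70, KU80 and XRCC1, in that order, overlapped from each gene to the next. In Col-0 KU70 stood apart, KU80 and XRCC1 overlapped, and so did XRCC4 and LIG4. LIG6 and POLQ were apart from their neighbours, and lowest, in both genotypes. Length here is all annotated exon bases, so a gene with a long exon that is seldom used appears lower than it is.

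**Figure D4:**
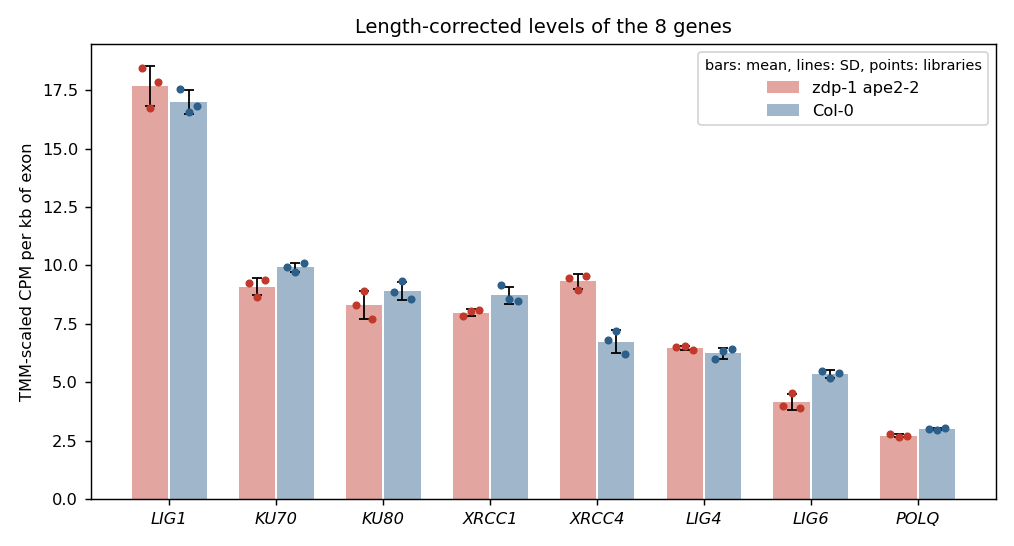
TMM-scaled CPM per kb of exon for the 8 genes, ordered by their mean in Col-0, with zdp-1 ape2-2 (red) left of Col-0 (blue), bars for means, lines for the SD and points for libraries (n = 3 each). XRCC4 stands at 9.32 CPM per kb in zdp-1 ape2-2 and at 6.74 CPM per kb in Col-0.

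Other genes of the same and neighbouring routes were read from the same fit, in which 22.2% of all genes were higher and 21.2% lower. Of 11 tested genes of end processing and alternative end joining, 3 were called higher and 3 called lower, and their median log2 fold change was -0.06. Those called lower were SNM1, RAD1 and RAD50, at log2 fold changes of -0.26, -0.15 and -0.10. Of the exon bases of SNM1, 24.6% lie under other genes. The poly(ADP-ribose) polymerase genes PARP2 and PARP1, whose products sense breaks, rose by 2.26 ± 0.04 and 0.58 ± 0.05, and COM1, which starts the trimming of break ends, rose by 1.21 ± 0.08 (edgeR adjusted p-values of 5.29e-33 for PARP2, 4.22e-13 for PARP1 and 3.61e-15 for COM1). PARP2 had 54.1 ± 0.60 CPM in zdp-1 ape2-2 and 11.3 ± 0.56 CPM in Col-0 (SD, n = 3 each). Its log2 change is larger than the upper interval bound of any of the 8 genes, which is 0.60 for XRCC4.

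Homologous recombination, the route that copies an intact partner, had 7 of 14 tested genes higher and 1 lower, with a median of 0.19. The 7 include BRCA2A and BRCA2B, whose exons have copies for 96.0% and 91.4% of their bases, so that their counts may not be separate. BRCA1 had 73.2 ± 1.07 CPM in zdp-1 ape2-2 and 11.8 ± 0.14 CPM in Col-0, and RAD54, a chromatin remodeller of this route, had 17.9 ± 0.18 CPM in zdp-1 ape2-2 and 8.84 ± 0.53 CPM in Col-0 (SD, n = 3 each). BRCA1 rose by 2.63 ± 0.04 and RAD54 by 1.02 ± 0.06 on the log2 scale.

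Of 16 genes of base excision and single-strand break repair, partners of LIG1 and XRCC1, 3 were higher and 6 lower, with a median of -0.05. The 6 include ZDP and APE2, which are mutated in this line. By p, the first decreases were those of the demethylase gene ROS1, by 1.04 ± 0.03, and in the targeted genes ZDP, by 0.71 ± 0.05, and APE2, by 0.51 ± 0.08, all on the log2 scale. Of 9 genes that work beside LIG1 in replication, 8 were higher and none lower, and the median was 0.27. POLE1, the catalytic subunit of polymerase epsilon, rose by 0.73 ± 0.03, PCNA1, the sliding clamp that binds LIG1, by 0.45 ± 0.04, and MCM5 of the replicative helicase by 0.36 ± 0.04. Exons of POLE1 lie under other genes for 24.4% of their bases and have copies for 39.3%, so its count is uncertain. Among the 11 genes named here by smallest p from these 4 lists the largest edgeR adjusted p was 2.65e-06, that of APE2. POLE1, PCNA1 and MCM5 were named for the smallest p in their list, so they are its clearest changes. LIG1, at a log2 fold change of 0.06, lay above POLD2 of that list, at 0.04. It lay below the 8 called higher, of which MCM2 was lowest, at 0.12. The difference between LIG1 and the replication genes was not tested.

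**Figure D5:**
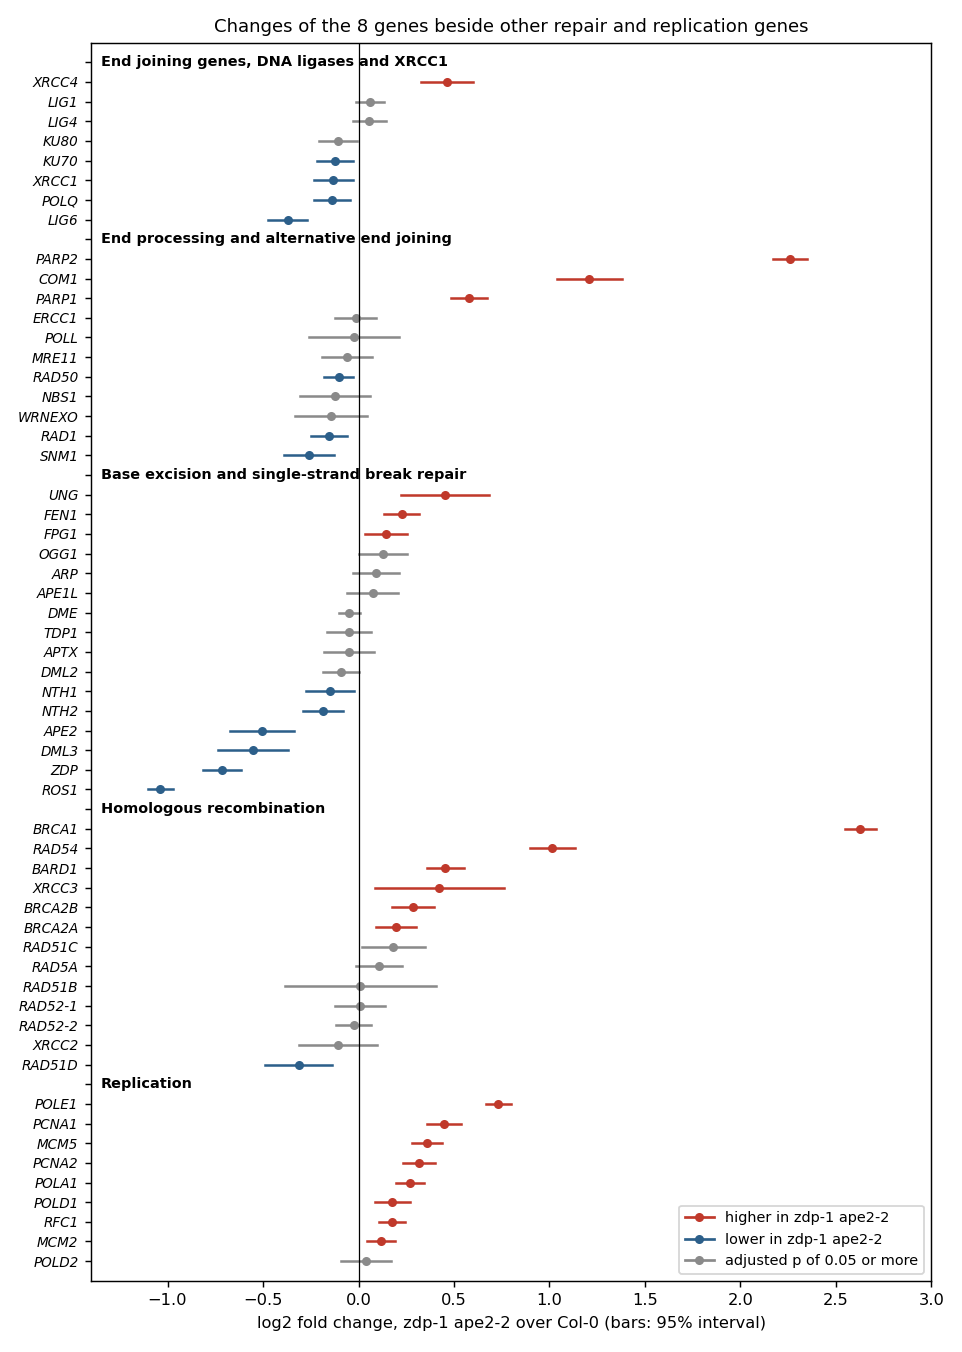
Log2 fold changes (zdp-1 ape2-2 over Col-0) with 95% intervals for the 8 genes at the top and, below them, tested genes of 4 lists of repair and replication genes, coloured by call at an edgeR adjusted p below 0.05. The 8 genes lie between -0.37 and 0.46, while BRCA1 reaches 2.63 and PARP2 2.26.

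The promoters were searched for the binding motif of SOG1, which switches on genes of the DNA damage response in plants (CTT, then 7 bases of any kind, then AAG), and for the E2F motifs TTTCCCGC and TTTGGCGC of S-phase genes. The window ran from 250 bases before to 50 bases after the annotated start of the gene, on both strands. The SOG1 motif was in 3 of the 8 promoters, against 11.8% of 27431 promoters of protein-coding genes. It lay 59 bases before the start in POLQ, and after the start in LIG4, at base 37, and in XRCC1, at base 5. Neither E2F motif was in any of the 8 windows, against 0.798% and 0.434% of all promoters. XRCC4, LIG6, KU70, KU80 and LIG1 held none of the 3 motifs. Of the 3 holders of the SOG1 motif, POLQ and XRCC1 were called lower and LIG4 was not called. Whether a motif bears on these changes was not tested. The SOG1 motif was also in the windows of PARP2, COM1 and RAD54. A match is a run of letters and not a measured binding site. The windows of POLQ and XRCC4 upstream of the start are shown, read from RefSeq TAIR10.1 at chr4:15766935-15767184 and chr3:8220432-8220681, both on the plus strand, with the SOG1 motif in capitals.
POLQ upstream: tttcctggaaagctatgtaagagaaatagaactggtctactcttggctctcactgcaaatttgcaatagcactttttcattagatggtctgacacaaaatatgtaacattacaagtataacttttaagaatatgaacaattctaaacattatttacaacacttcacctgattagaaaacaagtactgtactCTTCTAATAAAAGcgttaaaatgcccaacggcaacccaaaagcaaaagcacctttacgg
XRCC4 upstream: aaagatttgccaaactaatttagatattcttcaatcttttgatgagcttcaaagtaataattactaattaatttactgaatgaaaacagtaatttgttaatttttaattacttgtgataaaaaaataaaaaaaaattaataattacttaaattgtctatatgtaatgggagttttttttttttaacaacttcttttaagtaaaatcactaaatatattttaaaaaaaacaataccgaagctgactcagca

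Markers of tissues differed between the groups as well, in the fit where 22.2% of all genes were higher and 21.2% lower. Of 4 markers of dividing cells 3 were higher, with a summed level of 103 to 106 CPM in zdp-1 ape2-2 and 87.5 to 92.9 CPM in Col-0. All 3 flower markers were higher (23.8 to 24.5 CPM summed in zdp-1 ape2-2 and 9.39 to 10.1 CPM in Col-0), and all 3 leaf photosynthesis markers were lower (15835 to 16237 CPM in zdp-1 ape2-2 and 20424 to 21010 CPM in Col-0). Of 4 root markers 1 was higher and 3 were lower (146 to 157 CPM in zdp-1 ape2-2 and 156 to 162 CPM in Col-0). No marker was at 0. The part of these shifts in the changes of the 8 genes was not tested.

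Among the 50 tested genes of the 4 repair and replication lists, those whose pattern over the 6 libraries was most like that of LIG6 were RAD51D, SNM1 and DML3, with a root mean square difference of 0.07, 0.10 and 0.11 in centred log2 CPM. Most like the mean of KU70, KU80, LIG4 and XRCC4 were FPG1, POLD2 and RAD5A, at 0.05 each. The averaged genes went in both directions, with log2 fold changes of -0.12, -0.11, 0.06 and 0.46, so their mean is not a pattern they share.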

How the data were processed

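The authors deposited 1 table of raw read counts per gene for each sample, with exon coordinates and exon length. Per the submitters' processing notes, STAR and TAIR10 were used. Which program counted the reads, whether by strand, and how reads with several alignments were handled is not given in the sources used here. All 33489 genes lie on chromosomes 1 to 5, and all were matched to RefSeq TAIR10.1, 33297 with the same chromosome, start and end. Samples were grouped by their titles. Nothing in the labels says that a group's samples were grown separately, and p-values therefore measure only how far these samples spread, which may be technical.

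Genes kept by filterByExpr were tested with edgeR 4.0.16 in R 4.3.3 (TMM factors, quasi-likelihood test, genotype as the only term, two-sided, 6 samples), with calls where the p adjusted by Benjamini-Hochberg was below 0.05. Standard errors came from dividing each log2 fold change by the root of its F. One count was worth 0.0262 to 0.0328 CPM, the common biological coefficient of variation was 1.99%, and the 8 genes had 236 to 1938 counts per library. Within groups the chi-square per gene was 1.55 to 1.92 for every pair, so no library was counted as a repeat. Ratios and shares used counts per kb of exon and exact permutation tests (SciPy 1.17.1). Likeness used log2(CPM + 0.5). Copies were hits of at least 50 bases and 90% identity in BLAST 2.17.0. Promoter windows were read from the genome by coordinates. DESeq2 1.42.0 and limma 3.58.1 served as alternatives.

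The members, gene lists and tests were chosen with earlier results of these data known. The rule for named genes took the 8 members, ZDP and APE2, the 3 called genes of smallest p in each list, the nearest genes by pattern, and genes whose product name holds DNA ligase. One gene that this rule takes is counted in its list but not reported here by name.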

Additional observations from a re-analysis of the deposited data

How the results depend on the processing

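XRCC4 (0.41 to 0.53 on the log2 scale) and LIG6 (-0.44 to -0.31) kept their direction and call in all 15 alternatives. No gene tracked reversed a call. Of the 8 genes, 5 were called, 1 higher and 4 lower. DESeq2 called 2, with 1 lower, against 32.1% of all genes, and a biological coefficient of variation set to 0.1 also called 2, with 1 lower, against 11.5%; KU70, POLQ and XRCC1 were lost in both. With library totals alone 3 were higher (XRCC4, LIG1 at 0.12 and LIG4 at 0.12) and 1 lower, and KU70, POLQ and XRCC1 were lost at -0.06, -0.08 and -0.07. Under that scaling 6964 of all 21182 genes tested were higher and 2717 lower, and their median log2 fold change was 0.07. Leaving out 1 library gave 3 to 5 called, 1 to 2 higher and 2 to 4 lower, against 8214 to 8621 of all genes called. The cause was not tested.

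Over all genes 9197 were called, 4699 higher and 4498 lower (51.1% higher). With library totals 2717 were lower (71.9% higher). With the coefficient of variation set to 0.1, 2428 were called, 1668 higher and 760 lower. Under that setting homologous recombination had 4 higher and 0 lower genes, replication 3 higher, end processing 0 lower and base excision repair 1 higher; with library totals base excision repair had 5 higher and end processing 1 lower. For the 7 ratios and shares, in which scaling cancels, only leaving out a library and dropping the length correction were run, and dropping it cannot move a difference of log2 ratios. All kept their direction except KU70 over KU80, at -0.10 to 0.07. Same-lettered samples did not deviate together (r = -0.01, 0.07 and 0.01), and not every sample matched its own letter best. A replicate block called 9450 genes and the same number of members, 5. Summing XRCC4 with its copies was chosen after seeing the data. At this depth the 95% intervals of the 6 genes other than XRCC4 and LIG6 reach from -0.23 to 0.14 in log2, and the design of 3 against 3 samples cannot give an exact permutation p below 0.1.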

Other observations

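The reference gives 12 further genes a product name that holds the words DNA ligase, several of them beside the name of a domain of unknown function, and the name alone does not show ligase activity. Of these, 11 were tested, 3 were higher, 2 lower and 6 neither, where 22.2% of all genes tested were higher and 21.2% lower. The called genes follow. AT1G75150 had 14.6 ± 0.97 CPM in zdp-1 ape2-2 and 11.3 ± 0.40 CPM in Col-0 (SD, n = 3 each), a rise of 0.37 ± 0.06 on the log2 scale (edgeR adjusted p = 3.27e-06). AT2G33793 had 4.84 ± 0.58 CPM in zdp-1 ape2-2 and 6.74 ± 0.21 CPM in Col-0, and fell by 0.48 ± 0.09 (edgeR adjusted p = 2.36e-05). AT1G20100 and AT1G70420 rose by 0.14 ± 0.04 and 0.19 ± 0.06, and AT5G25590 fell by 0.19 ± 0.04. AT1G49250, the one whose sequence matches LIG1, was the gene not tested.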
